A study of Mus musculus with 12 samples.

Results

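Mouse embryonic fibroblasts in which CBP and p300 lack the CH1 domain were compared with control fibroblasts at 21% O2, using all 6 arrays whose sample titles name normoxia, of 12 arrays in the series. The 3 triCH1 cultures were set against the 3 control cultures, and the 6 arrays of the same lines in hypoxia were used for a second reading of each difference. CBP (gene Crebbp) and p300 (gene Ep300) are closely related coactivators: transcription factors recruit them to promoters and enhancers, where they acetylate histones and hold other proteins in place. CH1, also called TAZ1, is a small zinc-binding domain that receives the activation domain of HIF-1α and of several other factors, among them the HIF competitor CITED2, and p53 and the MDM2 protein can bind it too. Embryonic fibroblasts are a mixed population of mesenchymal cells that divide in culture and then slow down as they approach senescence.

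The control lines flox2_1 and flox2_2 were heterozygous for a conditional Ep300 allele (p300 +/flox), and the control line flox1 was heterozygous for a conditional Crebbp allele (CBP+/flox). The lines triCH1flox2_1 and triCH1flox2_2 (CBP CH1/CH1;p300 CH1/flox) and the line triCH1flox1 (CBP CH1/flox;p300 CH1/CH1) carried CH1-deleted versions of 3 of the 4 alleles of these genes, and the remaining allele was conditional. Every line, control lines included, came from e14.5 embryos, received Cre adenovirus at passage 3 to remove the conditional allele and was expanded by at least 100-fold before the experiment. Control lines therefore held 3 intact alleles, and triCH1 lines held CH1-deleted alleles with no intact one. Subconfluent cultures were kept for 6 h in medium equilibrated at 21% O2 (hypoxia cultures at 0.1% O2) and lysed at once. Each line stands for 1 culture per oxygen level, and genotype, line and history of the culture cannot be told apart within a line. The labels do not say which lines were littermates, so p-values measure the spread between these cultures.

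The arrays (Affymetrix Mouse430_2) report a linear signal per probe set, scaled by the authors to a common target of 500. Median signals of the 6 normoxia arrays lay between 63.4 and 76.3, and Pearson's r of log2 signals was 0.946 to 0.973 for pairs within a line type and 0.944 to 0.975 for pairs between them. Arrays of the 2 line types thus resembled each other as much as arrays of 1 line type did. The fibroblast markers on the list were measured in 16 of 16 cases, with a summed signal of 177062 to 221543 in control and 186207 to 200285 in triCH1 cultures. The Y-linked genes Eif2s3y, Kdm5d and Uty and the X-inactivation transcript Xist placed flox2_1, triCH1flox2_2 and triCH1flox1 as female and the other lines as male, so the sexes were mixed differently in the groups (1 female of 3 control lines, 2 of 3 triCH1 lines).

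In normoxia the Crebbp signal was lowest in the lines that carried its conditional allele, and neither targeted gene passed a test between line types. Crebbp probe set 1435224_at read 1837.4 in flox2_1, 1076.8 in flox2_2 and 713.1 in flox1 among controls, and 1852.4 in triCH1flox2_1, 1276.9 in triCH1flox2_2 and 698.7 in triCH1flox1. The lines with a conditional Crebbp allele were the lowest of their group, and the same order held for the other 2 Crebbp probe sets (111.5 and 131.5 in these lines against 172.4 to 293.5 for 1434633_at, 142.3 and 166.1 against 230.6 to 499.1 for 1436983_at). Ep300 (1434765_at) read 468.4, 267.7 and 586.2 in flox2_1, flox2_2 and flox1, and 539.5, 353.4 and 473.8 in their triCH1 counterparts. Lines with a conditional Ep300 allele thus overlapped the rest in normoxia. In hypoxia they read 206.7 to 378.8, against 412.3 in flox1 and 836.4 in triCH1flox1. For Crebbp the hypoxia cultures kept the order on 1435224_at and 1436983_at. On 1434633_at triCH1flox2_2 (115.3) read below triCH1flox1 (142.2) in hypoxia. Between line types the log2 differences were 0.03 ± 0.37, 0.07 ± 0.40 and 0.18 ± 0.46 for Crebbp and 0.09 ± 0.43 for Ep300 (SE, limma, adjusted p of at least 0.992). The position of these probe sets relative to the deleted part is not given in the sources used here, so they check the conditional allele at most and not the loss of CH1.

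**Figure D1:**
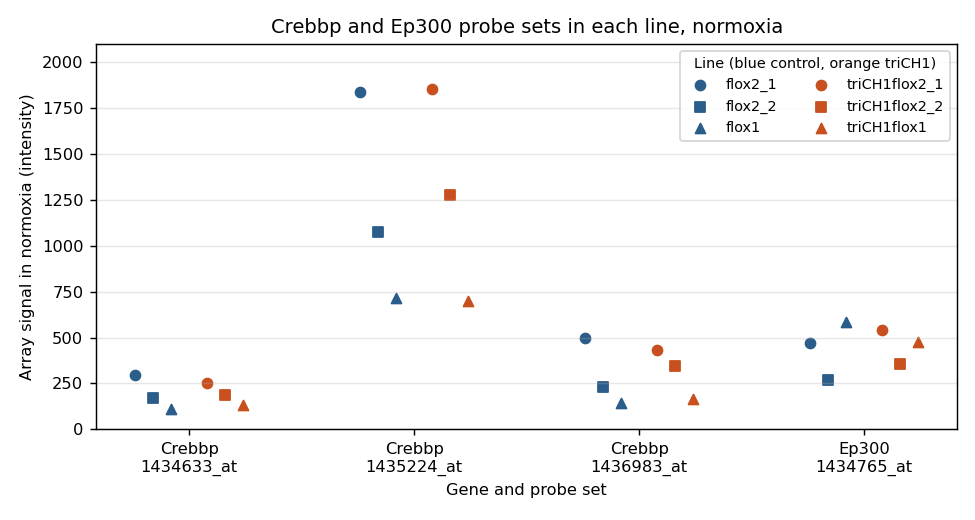
Linear array signal (y axis) of the 3 Crebbp probe sets and the Ep300 probe set (x axis) in each normoxia culture, 1 point per line, blue for control and orange for triCH1 lines, with triangles for the lines that carried a conditional Crebbp allele. For Crebbp the triangles are the lowest points of each colour (713.1 and 698.7 for 1435224_at), and the colours overlap throughout.

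Probe sets with a mean signal of at least 100 over the 12 arrays were tested as log2(signal + 20), in a model that shares 1 estimate of spread over all 12 arrays. Across these 18903 probe sets the line types differed in little that passed this test. At a Benjamini-Hochberg adjusted p under 0.05 from limma, 0 probe sets (0.0%) were called higher and 1 (0.00529%) was called lower in triCH1 cultures. A fit of the 6 normoxia arrays alone, 3 cultures against 3, called 0 higher and 0 lower. Without adjustment 705 probe sets were higher and 724 lower at p under 0.05, together 1429, where 945 would be passed by chance if nothing differed. Counting 1 probe set for each of the 10059 genes, 438 genes (4.35%) were higher and 400 (3.98%) lower at an unadjusted p under 0.05, and the median log2 difference of all genes was 0.02. In hypoxia the same lines gave 1 call higher (0.00529%) and 13 calls lower (0.0688%, limma). For a change of the line difference between oxygen levels, 0 probe sets passed the adjusted test (limma), and 131 had an unadjusted p under 0.05. That test did not pair the cultures of a line, and 131 is below the 945 passed by chance. It therefore cannot show that the line differences were equal at both oxygen levels.

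Each line difference was read again in the hypoxia cultures. In a fit of the mean difference over both oxygen levels, with the line as a random block, 17 genes (0.169%) were called higher and 74 (0.736%) lower. This fit treats the 12 arrays as repeated readings of 6 lines, with 1 estimated correlation of 0.30 for all probe sets. It is named below as the fit over both oxygen levels. When each line was reduced to 1 mean value, 3 lines against 3, 0 probe sets were called and the lowest adjusted p was 0.0682 (limma; 1858 probe sets at an unadjusted p under 0.05).

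Cthrc1 was the gene that passed in normoxia. It encodes a secreted protein with a collagen repeat that fibroblasts make during matrix remodelling and that takes part in Wnt signalling. Its signal was 5012.4 in flox2_1, 5984.1 in flox2_2 and 6032.5 in flox1, against 1731.0 in triCH1flox2_1, 2307.7 in triCH1flox2_2 and 2234.0 in triCH1flox1. The groups did not overlap, and the values within each group were close to each other. Cthrc1 fell by 1.44 ± 0.16 on the log2 scale (SE, limma, adjusted p = 0.00659), from a mean of 5676 ± 576 to 2091 ± 314 (SD, n = 3 each), 2.71-fold lower. The difference in hypoxia was -1.44 as well (adjusted p = 0.00631, limma), and the 3 pairs of lines with like names differed by -1.52, -1.37 and -1.43. With 1 line or 1 array left out in turn the difference stayed between -1.31 and -1.53, and it was called in 7 of 12 such fits (adjusted p up to 0.241, without flox1). It was not called on the 6 normoxia arrays alone (adjusted p = 0.168, limma).

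The 10 genes with the next smallest p among the lower ones did not pass the test in normoxia (adjusted p 0.0905 to 0.0934, limma). The groups overlapped in 0 of them, which adds no support, since they were chosen by p from these same values. Over all genes 4.67% did not overlap on the lower side. Several encode signalling or secreted proteins. Rgs4, a brake on G protein signalling, read 433.9, 305.6 and 314.1 in flox2_1, flox2_2 and flox1 and 53.9, 107.2 and 65.7 in triCH1flox2_1, triCH1flox2_2 and triCH1flox1 (log2 difference -1.98 ± 0.29). Nppb, the B-type natriuretic peptide, read 1665.3, 2057.6 and 1913.3 in the controls and 221.0, 373.6 and 778.5 in the triCH1 lines in the same order (-2.16 ± 0.34). The triCH1flox1 culture thus kept more Nppb than the other triCH1 cultures, but less than any control.

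Srpx2, an extracellular sushi-repeat protein, gave the most negative difference of these genes. It read 295.7, 212.8 and 423.4 in flox2_1, flox2_2 and flox1 and 12.7, 34.4 and 52.4 in their triCH1 counterparts (-2.66 ± 0.47), and at such low signals the fold depends on the offset of 20 added before the log. Tenomodulin (Tnmd), a membrane protein typical of tendon and ligament cells, read 958.4, 645.4 and 583.1 against 200.7, 136.6 and 214.4 (-1.87 ± 0.33). Dlk1, an imprinted transmembrane protein that restrains adipocyte differentiation, read 577.3, 801.2 and 644.2 against 282.0, 304.2 and 249.1 (-1.21 ± 0.19). In all 3 genes every triCH1 culture lay below every control culture. Srpx2 and Tnmd lie near each other on the X chromosome (windows before their starts begin at 133908175 and 133850758). Rnf128, named below, is on that chromosome too. The sexes were mixed differently in the groups, and a part of X linkage in these differences was not tested.

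The chemokine Ccl7 read 1288.7, 1100.5 and 1418.8 in flox2_1, flox2_2 and flox1 and 635.0, 566.8 and 421.3 in the triCH1 lines (-1.21 ± 0.21). Bpgm, which makes 2,3-bisphosphoglycerate, read 1853.7, 1208.6 and 1743.9 against 729.3, 604.1 and 703.1 (-1.20 ± 0.21). Maob, a mitochondrial amine oxidase, read 364.6, 378.9 and 256.1 against 110.0, 69.0 and 119.3 (-1.57 ± 0.27). The remaining 2 were Rnf128, a ubiquitin ligase, at -1.73 ± 0.30, and Trib2, a pseudokinase, at -1.02 ± 0.18. Their control cultures spanned 524.9 to 990.6 for Rnf128 and 973.2 to 1230.4 for Trib2, and their triCH1 cultures 160.1 to 269.0 and 526.1 to 601.6.

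Among higher genes, Wnt10a had the smallest p. It encodes a secreted Wnt ligand. It read 481.9, 624.6 and 285.6 in flox2_1, flox2_2 and flox1 and 1395.4, 1387.7 and 1164.4 in triCH1flox2_1, triCH1flox2_2 and triCH1flox1. The lowest triCH1 culture lay well above the highest control, and the log2 difference was 1.53 ± 0.25 (adjusted p = 0.0934, limma, not past the test). In hypoxia it was 1.61 and passed (adjusted p = 0.0391, limma), the only probe set called higher there.

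The other 9 genes on the higher side had adjusted p between 0.114 and 0.203 (limma). The groups overlapped in 0 of them in normoxia, which again adds no support to a choice made by p. Over all genes 6.88% did not overlap on the higher side. Cotl1, which binds actin filaments, read 552.3, 972.9 and 685.2 in the controls and 1541.5, 2171.7 and 1713.1 in the triCH1 lines (1.30 ± 0.24). The neighbouring membrane protein genes Tmem176a and Tmem176b differed by 1.15 ± 0.24 and 0.98 ± 0.21. The immediate early gene Arc read 128.0, 101.9 and 123.7 against 324.7, 297.6 and 295.7 (1.25 ± 0.29), with little spread in either group. Pald1 (1.40 ± 0.31) and the gap junction gene Gjb2 (0.46 ± 0.10) completed the genes outside the cell cycle.

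The remaining 3 belong to chromosome replication. Uhrf1, which maintains DNA methylation at the replication fork, read 980.3, 1127.7 and 857.8 against 2912.8, 2202.4 and 1424.7 (1.07 ± 0.25). Mcm3, a subunit of the replicative helicase, read 585.8, 618.4 and 555.5 against 1995.1, 1481.4 and 890.9 on probe set 1449705_x_at (1.21 ± 0.28), and the other 4 Mcm3 probe sets were also positive. In both genes triCH1flox1 was the lowest triCH1 culture. Donson, a replication fork protein, read 256.7, 250.4 and 192.2 against 541.0, 483.9 and 431.3 (1.00 ± 0.21).

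**Figure D2:**
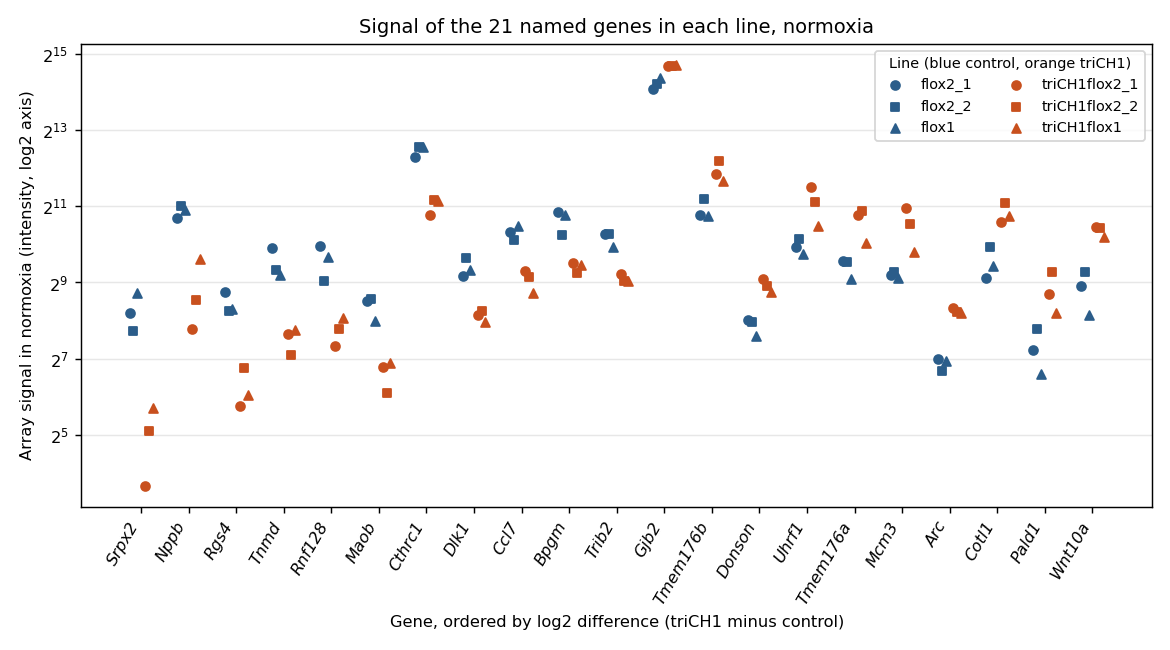
Linear array signal on a log2 axis (y) of the 21 genes with the smallest p in each direction (x, ordered by log2 difference), 1 point per normoxia culture, blue for control and orange for triCH1 lines, marker shapes for line names. In each of the 21 genes the blue and orange points are separate, as for Cthrc1 at 5012.4 to 6032.5 against 1731.0 to 2307.7. The genes were chosen by p from these same values, so the separation is no further support.

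Hypoxia cultures of the same lines gave the same sign for 20 of these 21 genes, and the groups did not overlap in 20. They are not independent lines, so this reads the lines again and adds no new ones. The exception in both counts was Donson, at -0.05 in hypoxia. In the hypoxia cultures alone 5 of the 21 were called: Cthrc1 (-1.44), Wnt10a (1.61), Nppb (-2.22, adjusted p = 0.0355), Bpgm (-1.43, adjusted p = 0.027) and Srpx2 (-2.80, adjusted p = 0.0473, all limma). In the fit over both oxygen levels 19 were called (8 higher, 11 lower), all but Donson and Gjb2. That count is a description, since the genes were chosen by their normoxia p.

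**Figure D3:**
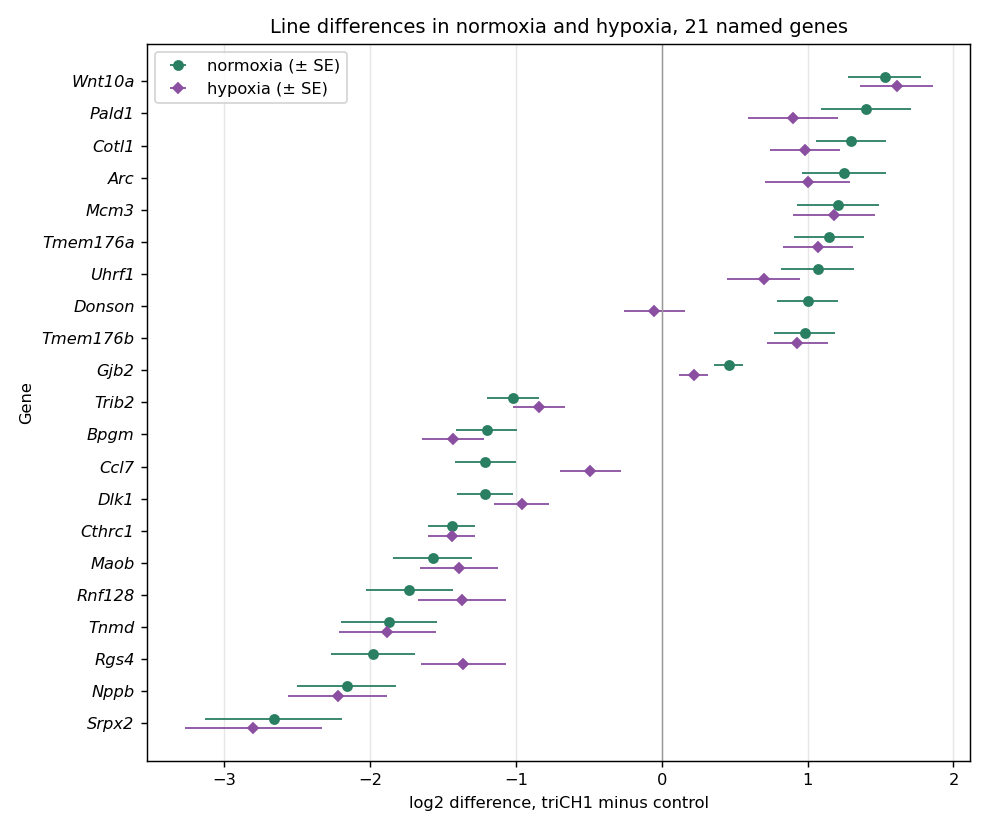
Log2 difference between triCH1 and control cultures (x axis, limma estimate ± SE) for each of the 21 genes (y axis), green circles for normoxia and purple diamonds for hypoxia. The markers of a gene lie on the same side of 0 except for Donson (1.00 and -0.05), and Ccl7 is nearer to 0 in hypoxia (-0.49) than in normoxia (-1.21).

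Most genes of DNA replication had higher signals in triCH1 cultures. Many of them load the helicase at origins (Cdc6, Cdt1, the Mcm subunits), supply nucleotides or make up the polymerase machinery, and are transcribed mainly around entry into S phase. The list also holds cell cycle regulators, among them the cyclin genes Ccnd2, Ccnd3 and Ccne1 and the factor gene E2f1. Of 28 measured members 27 had a positive difference, with a median of 0.65 against 0.02 over all genes. None passed the adjusted test in normoxia, while 17 were higher and 1 (Ccnd2) lower at an unadjusted p under 0.05, where 4.35% and 3.98% of all genes were. The groups did not overlap in 14 members on the higher side, against 6.88% of all genes on that side.

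Cdc6 read 502.5, 516.7 and 285.9 in flox2_1, flox2_2 and flox1 and 1508.4, 1332.5 and 587.9 in triCH1flox2_1, triCH1flox2_2 and triCH1flox1 (1.29 ± 0.42, adjusted p = 0.449, limma). Cdt1 read 1475.0, 2091.7 and 1135.3 against 4170.8, 4784.6 and 1881.1 (1.13 ± 0.32). Mcm5 read 1850.2, 2884.0 and 2135.3 against 5042.4, 5979.8 and 3118.1 (1.01 ± 0.26). In each of them triCH1flox1 lay much nearer to the controls, and for Cdt1 it lay within them. The fit over both oxygen levels called 0.169% of all genes higher. It called 4 of the 28 higher: Cdt1 (1.12 ± 0.24), Mcm3 (0.95 ± 0.18), Mcm5 (0.95 ± 0.19) and Mcm2 (0.81 ± 0.17), with adjusted p between 0.0316 and 0.0474 (limma).

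The promoters of these 4 genes are shown because they are the replication genes called over both oxygen levels. Each line gives the 250 bases before the transcription start from RefSeq (GRCm38.p6), 5′ to 3′ on the gene's strand. Capitals mark matches on either strand to CCAAT, the box bound by NF-Y, and to TTTCCCGC, TTTCGCGC, TTTGCCGC or TTTGGCGC, forms of the E2F motif.
Mcm2 chr6:88898781-88899030 (minus strand): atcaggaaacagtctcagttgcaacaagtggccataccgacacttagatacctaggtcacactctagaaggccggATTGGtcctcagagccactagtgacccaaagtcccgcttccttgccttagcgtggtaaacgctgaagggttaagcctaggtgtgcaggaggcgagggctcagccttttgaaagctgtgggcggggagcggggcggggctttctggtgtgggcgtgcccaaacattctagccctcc
Mcm3 chr1:20820313-20820562 (minus strand): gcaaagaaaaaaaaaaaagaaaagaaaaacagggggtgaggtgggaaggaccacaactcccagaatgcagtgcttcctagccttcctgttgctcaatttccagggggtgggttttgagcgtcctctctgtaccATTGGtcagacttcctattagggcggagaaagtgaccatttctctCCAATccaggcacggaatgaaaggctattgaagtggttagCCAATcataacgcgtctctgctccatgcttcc
Mcm5 chr8:75109259-75109508 (plus strand): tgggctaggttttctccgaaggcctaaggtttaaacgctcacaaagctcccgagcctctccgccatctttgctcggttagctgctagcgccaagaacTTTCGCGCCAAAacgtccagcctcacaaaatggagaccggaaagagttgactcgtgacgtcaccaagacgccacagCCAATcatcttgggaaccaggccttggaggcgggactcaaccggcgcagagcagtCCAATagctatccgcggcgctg
Cdt1 chr8:122567765-122568014 (plus strand): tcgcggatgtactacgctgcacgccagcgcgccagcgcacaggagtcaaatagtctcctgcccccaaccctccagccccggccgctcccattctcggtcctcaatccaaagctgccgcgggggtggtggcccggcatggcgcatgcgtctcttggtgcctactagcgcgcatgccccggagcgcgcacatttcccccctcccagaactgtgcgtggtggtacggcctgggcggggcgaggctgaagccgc
Mcm5 held the E2F motif in both orientations, overlapping, with 2 CCAAT boxes nearer to the start, Mcm3 held 3 CCAAT boxes, Mcm2 held 1, and Cdt1 held neither motif in this window. Of 21 replication genes with a promoter in the table, 6 (28.6%) held an E2F match and 14 (66.7%) a CCAAT box, against 2.16% and 37.5% of all 27025 genes there. These shares describe the list and do not depend on how its genes differed between the line types. A match is a description of the sequence and says nothing of which factor was bound in these cultures.

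Genes of mitosis showed the same sign with smaller differences. All 24 measured members had a positive difference, with a median of 0.47, and 12 were higher and 0 lower at an unadjusted p under 0.05 (limma), 0 of them past the adjusted test. The groups did not overlap in 9. Over all genes 4.35% were higher and 3.98% lower at that threshold, and 6.88% did not overlap on the higher side. Aurkb, a kinase of the chromosomal passenger complex, read 365.9, 372.5 and 362.8 in the controls and 811.7, 885.1 and 423.2 in triCH1flox2_1, triCH1flox2_2 and triCH1flox1 (0.84 ± 0.28). Ccna2 (cyclin A2) differed by 0.67 ± 0.31, Prc1, a spindle midzone protein, by 0.65 ± 0.29, and the kinesin Kif11 by 0.64 ± 0.43. In hypoxia the medians were 0.53 for mitosis and 0.62 for DNA replication.

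Most genes of p53 signalling and senescence had lower signals. Of 17 measured members 15 had a negative difference (median -0.37), and 8 were lower and 0 higher at an unadjusted p under 0.05 (limma), with 0 past the adjusted test. Over all genes 3.98% were lower and 4.35% higher at that threshold. The groups did not overlap in 5, against 4.67% of all genes on the lower side. Pmaip1 (NOXA), a pro-apoptotic p53 target, read 2626.9, 1901.7 and 4144.6 in flox2_1, flox2_2 and flox1 and 330.6, 523.9 and 1208.0 in the triCH1 lines (-2.17 ± 0.53). It was the 1 member called in the fit over both oxygen levels (adjusted p = 0.0316, limma), which called 0.736% of all genes lower. Cdkn2a, which encodes the cell cycle inhibitor p16 and ARF, read 669.1, 845.1 and 1460.6 against 415.0, 332.9 and 671.2 (-1.02 ± 0.33).

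Its neighbour Cdkn2b, which encodes p15, read 1855.0, 3401.8 and 4486.3 against 1195.6, 1046.1 and 2760.4, a mean 1.95-fold lower. For both inhibitors flox1 and triCH1flox1 were the highest of their line types, and triCH1flox1 overlapped the controls. Trp53inp1, another p53 target, differed by -0.94 ± 0.24, with no overlap. Cdkn1a (p21), chosen here after its values were seen as the classic p53 target, read 8900.0, 14821.3 and 17892.1 against 6412.7, 7676.8 and 12341.6 (-0.65 ± 0.28).

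The triCH1flox1 culture stood apart from the other triCH1 cultures in these lists. Taking each gene against the mean of the 3 controls, the median of the replication genes was 1.01 in triCH1flox2_1, 0.79 in triCH1flox2_2 and 0.28 in triCH1flox1, while the control cultures lay at -0.08, 0.17 and -0.08. In 24 of 28 genes triCH1flox1 was the triCH1 culture nearest to the control mean. For mitosis the medians were 0.58, 0.73 and 0.19 and triCH1flox1 was nearest in 20 of 24 genes. For p53 and senescence they were -0.46, -0.55 and -0.16, with triCH1flox1 nearest in 11 of 17. This was not particular to these lists. It was nearest in 14 of 23 immediate early and 13 of 20 contractile genes, though in 3 of 25 genes of oxidative phosphorylation. The flox1 pair also had the fewest probe sets at least 2-fold apart (858, against 1079 for flox2_1 and 1050 for flox2_2).

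The hypoxia cultures repeated that order for the replication genes (0.79, 0.88 and 0.16). Without triCH1flox1 the median difference of the replication list was 0.96, that of mitosis 0.64 and that of p53 and senescence -0.48, and without that line 86 probe sets were called higher and 159 lower (limma). Since triCH1flox1 was the only triCH1 line that carried a conditional Crebbp allele, its genotype and its culture cannot be told apart. With the floxed gene as a covariate 27 probe sets were called higher and 61 lower.

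**Figure D4:**
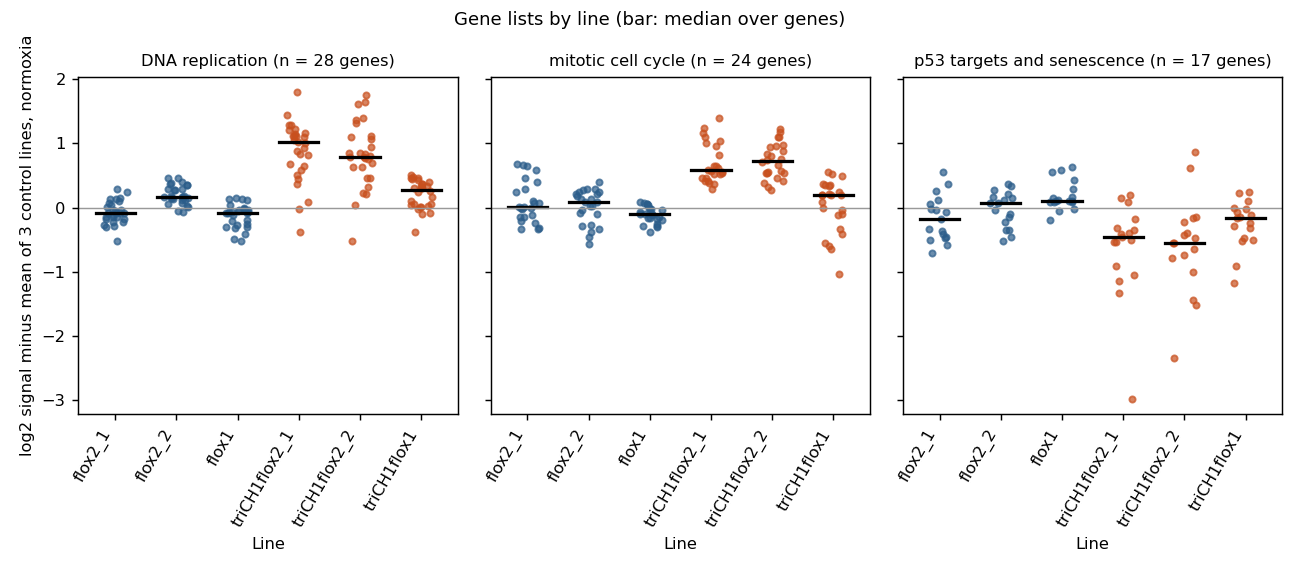
Log2 signal of each list member in normoxia minus its mean in the 3 control cultures (y axis) by line (x axis), blue for control and orange for triCH1 lines, with a bar at the median over genes. The bars for DNA replication stand at 1.01, 0.79 and 0.28 in triCH1flox2_1, triCH1flox2_2 and triCH1flox1, and those for p53 targets and senescence at -0.46, -0.55 and -0.16.

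Part of the HIF targets had lower signals in triCH1 cultures even at 21% O2. HIF is the oxygen-regulated transcription factor whose activation domain CH1 binds, and in normoxia its α subunits are hydroxylated and degraded. Of 33 targets outside sugar metabolism 26 had a negative difference (median -0.20), and 7 were lower and 1 higher at an unadjusted p under 0.05 (limma), none past the adjusted test. Over all genes 3.98% were lower and 4.35% higher at that threshold. Ankrd37, an ankyrin repeat protein, read 494.9, 564.8 and 682.4 in flox2_1, flox2_2 and flox1 and 146.6, 89.3 and 316.1 in the triCH1 lines, with no overlap (-1.70 ± 0.33, adjusted p = 0.155). Egln3, an oxygen-dependent prolyl hydroxylase that acts on HIF, read 479.7, 519.4 and 446.2 against 184.8, 283.7 and 400.8 (-0.75 ± 0.25). The collagen lysyl hydroxylase Plod2 differed by -0.79 ± 0.24 and the carbonic anhydrase Car9, near background at 4.4 to 75.4, by 0.75 ± 0.53.

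The fit over both oxygen levels called 0.736% of all genes lower. It called 3 of the 33 lower, Ankrd37 (-2.02 ± 0.25), Egln3 (-1.45 ± 0.19) and Ero1a (-0.69 ± 0.14), an oxidase of the endoplasmic reticulum. For Egln3 the hypoxia cultures carried most of that value (-2.15 there). Of 17 HIF targets of glucose uptake and glycolysis 7 had a positive and 10 a negative difference (median -0.02), and 1 was lower at an unadjusted p under 0.05: Slc2a3, a glucose transporter, at -0.73 ± 0.33. That single gene is near the share of all genes, of which 3.98% were lower. Slc2a1, the main glucose transporter of fibroblasts, read 7446.1, 8311.9 and 9591.4 against 5716.7, 7545.9 and 8803.7 (-0.21 ± 0.18). Aldoc (0.57 ± 0.33) and Pdk1 (0.22 ± 0.27) lay above 0 with wide errors.

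Coactivators and the partners of CH1 differed little. Of 19 measured genes 2 were lower and 0 higher at an unadjusted p under 0.05 (median 0.05, limma), where 3.98% and 4.35% of all genes were. The lower ones were Mdm2, the ubiquitin ligase that removes p53, at 2451.0, 1596.5 and 2180.9 against 1438.6, 1216.1 and 1421.4 (-0.59 ± 0.21), and Cited2, which competes with HIF for CH1, at 7241.6, 7267.6 and 8108.2 against 5345.6, 4819.5 and 6266.1 (-0.47 ± 0.15). Neither set of values overlapped between groups. Ncoa1 differed by 0.57 ± 0.36 and Ets1 by -0.41 ± 0.21.

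Genes of adhesion and guidance leaned lower, with 29 of 34 negative (median -0.44), 9 lower and 1 higher at an unadjusted p under 0.05 (limma), and no overlap for 10 on the lower side. Over all genes 3.98% were lower and 4.35% higher at that threshold, and 4.67% did not overlap on the lower side. Epha4, an ephrin receptor, read 556.5, 209.5 and 318.2 against 46.5, 165.0 and 108.8 (-1.61 ± 0.38). Cdh11, the mesenchymal cadherin, read 3652.7, 4989.6 and 3710.4 against 871.9, 1309.4 and 2284.0 (-1.55 ± 0.43). The integrin subunits Itgb3 and Itga8 differed by -1.46 ± 0.40 and -1.34 ± 0.31. The member on the higher side was the integrin subunit Itga3 (0.62 ± 0.26), named after its values were seen, as are members further down a list below where they complete a count. The fit over both oxygen levels called 3 of the 34 lower (0.736% of all genes), Itgb3, Itga8 and Thy1.

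Matrix genes were mostly slightly lower, with single genes far off. Of 43 collagens and matrix genes 34 were negative (median -0.21). At an unadjusted p under 0.05 (limma) 5 were lower and 1 higher, where 3.98% and 4.35% of all genes were. The lower ones were Thbs2, Mmp2 (-0.92 ± 0.25), Col7a1 (-0.85 ± 0.25), Fbln5 (-0.84 ± 0.21) and Col4a2 (-0.80 ± 0.35). Thbs2 (thrombospondin 2) read 1845.6, 1517.0 and 2026.7 against 593.0, 508.3 and 1053.2 (-1.36 ± 0.39). The proteoglycans Lum and Dcn went the other way and unevenly: Lum read 263.8, 369.1 and 194.8 in the controls and 3678.1, 800.1 and 284.6 in triCH1flox2_1, triCH1flox2_2 and triCH1flox1 (1.76 ± 0.90). Dcn read 53.1, 122.5 and 106.3 against 620.5, 263.7 and 141.8 (1.49 ± 0.67), so triCH1flox2_1 carried most of both differences. The stromelysin gene Mmp3 read between 113.0 and 882.6 with full overlap.

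Cartilage collagens were among the most negative values. Col10a1, made by hypertrophic chondrocytes, read 2763.7, 1021.1 and 621.9 against 344.8, 204.3 and 160.5 (-2.33 ± 0.52). Col2a1, the main cartilage collagen, read 1977.5, 882.9 and 1684.8 against 192.4, 305.7 and 408.6 (-2.23 ± 0.54). Both were called lower in the fit over both oxygen levels (adjusted p 0.0245 and 0.0188, limma). They were the 2 calls among 6 measured cartilage and bone markers, where 0.736% of all genes were called lower. The other named members were closer to the controls, Col11a1 at -0.63 ± 0.30 and Sox9, the chondrocyte regulator, at -0.27 ± 0.30. The summed signal of the 23 cartilage and bone markers on the array was 4417 to 9335 in control and 2720 to 3610 in triCH1 cultures. Col10a1 and Col2a1 are part of that sum, and 6 of the 23 reached the signal minimum. The median marker went the other way, at 37.1 to 43.3 in control and 44.1 to 65.4 in triCH1 cultures, below that minimum. Fewer cells of a type and less RNA per cell cannot be told apart in such cultures.

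Other lists of foreign cell types were low or overlapped. Summed muscle markers were 13133 to 19666 in control and 8624 to 14699 in triCH1 cultures, neural and glial markers 6347 to 11501 and 5117 to 8196, and endothelial markers 1867 to 2106 and 1292 to 1595. Of these lists, 5 of 21, 6 of 18 and 4 of 16 genes on the array reached the signal minimum. Summed macrophage, epithelial, mesothelial and adipocyte markers overlapped between the line types. The part of any of these markers in the differences above was not tested. Of the single markers, Tubb3, a neuronal tubulin that cultured fibroblasts also make, read 291.5, 230.5 and 237.0 against 106.4, 45.0 and 82.8 (-1.52 ± 0.29), and Esam, an endothelial junction protein, 574.6, 289.4 and 798.1 against 74.7, 131.9 and 209.5 (-1.84 ± 0.56). Smooth muscle actin Actg2, from the list of contractile genes, read 8398.0, 11237.4 and 11223.3 against 2575.2, 4175.1 and 6994.5 (-1.27 ± 0.33), while 20 contractile genes together had a median of -0.10. Thy1, a fibroblast surface marker, read 4623.9, 7558.3 and 5967.0 against 2397.7, 2517.0 and 4001.2 (-1.03 ± 0.24) and was called over both oxygen levels (adjusted p = 0.0174, limma).

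Signalling lists showed single genes and no common direction. Over all genes 4.35% were higher and 3.98% lower at an unadjusted p under 0.05 (limma). The single higher genes of the Wnt list and of the TGF-β and BMP list are near that share. In the Wnt list (23 genes, median -0.06) Wnt10a was higher and 4 genes were lower at an unadjusted p under 0.05 (limma): Cthrc1, Dkk3, the receptor gene Fzd7 (-0.68 ± 0.22) and the ligand gene Wnt5a (-0.66 ± 0.25). Dkk3, a secreted protein of the Dickkopf family, read 2077.7, 1191.3 and 1427.7 against 712.6, 372.4 and 600.3 (-1.46 ± 0.33), with no overlap. Sfrp2, a secreted Wnt antagonist, read 1555.4 in triCH1flox2_1 but 391.5 in triCH1flox2_2 and 22.8 in triCH1flox1, so its difference (1.47 ± 1.28) rests on a single line. In the TGF-β and BMP list (30 genes, median -0.05) 6 were lower and 1 higher at an unadjusted p under 0.05, led by Tgfbi (-1.39 ± 0.33), Inhba (-1.23 ± 0.33), Tgfb2 (-1.08 ± 0.33) and Grem1 (-0.90 ± 0.29), each without overlap. The member on the higher side was the receptor gene Tgfbr2 (0.44 ± 0.16). Inhba, a subunit of activin, read 11723.3, 4855.5 and 11398.7 against 2964.6, 3965.6 and 4203.5.

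Inflammatory genes of the NF-kB list had a median of -0.25 over 18 genes, with 4 lower at an unadjusted p under 0.05 (limma), the collagenase Mmp13 (-1.43 ± 0.53), the chemokines Ccl7 and Ccl2 (-0.60 ± 0.21) and the feedback inhibitor Tnfaip3 (-0.85 ± 0.32). Over all genes 3.98% were lower and 4.35% higher at that threshold. Interferon and STAT genes had a median of 0.18 over 17, with 3 higher: Oas1a (1.42 ± 0.49), Bst2 (0.92 ± 0.34) and the class I gene H2-K1, at 1817.5, 2201.0 and 1772.9 against 2737.7, 2738.4 and 3474.4 (0.62 ± 0.16). Immediate early genes split in normoxia, 5 higher and 3 lower of 23 at an unadjusted p under 0.05. Arc, described above, is not on this list. The higher ones were Egr1, Egr3 (0.74 ± 0.34), Fos, Klf10 (0.42 ± 0.19) and Ier2 (0.36 ± 0.15), and the lower ones Dusp1, Klf6 (-0.55 ± 0.23) and Ier3 (-0.36 ± 0.15). The fit over both oxygen levels called 2 members lower, Dusp1 and Ier3, and 0 higher, where 0.736% and 0.169% of all genes were. Egr1, a serum-induced zinc finger factor, read 4102.5, 4571.2 and 3531.7 against 7042.2, 7144.1 and 6091.4 (0.73 ± 0.18), and the phosphatase gene Dusp1 read 8851.9, 11149.7 and 11295.0 against 3774.0, 5070.7 and 7374.9 (-0.99 ± 0.23). Fos, which is also a target of CREB, the factor CBP is named for, read 484.2, 624.5 and 416.2 against 849.4, 760.9 and 717.7 (0.61 ± 0.18). Of 14 CREB and cAMP targets Fos was higher and Inhba and Dusp1 were lower at that threshold (median -0.21, limma).

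Position and imprinting genes leaned lower through a few members. Of 45 Hox and limb position genes 8 were lower and 0 higher at an unadjusted p under 0.05 (median -0.12, limma). Over all genes 3.98% were lower and 4.35% higher at that threshold. Zic1, a zinc finger factor of dorsal tissue, read 385.2, 154.2 and 265.6 against 50.2, 55.4 and 105.6 (-1.64 ± 0.36), and the forkhead gene Foxd1 452.5, 311.7 and 277.9 against 121.8, 117.7 and 169.2 (-1.22 ± 0.28). These were the 2 members called lower over both oxygen levels (0.736% of all genes). Of 16 imprinted genes 4 were lower and 0 higher (median -0.43), namely the cell cycle inhibitor Cdkn1c at -1.41 ± 0.58, with flox2_1 (610.0) far above the other controls (220.1 and 170.8), Dlk1, Plagl1 (-0.81 ± 0.34) and the noncoding Rian (-0.57 ± 0.19).

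Housekeeping lists had medians near 0. The median was 0.01 over 20 ribosomal protein genes, 0.03 over 25 genes of oxidative phosphorylation, 0.06 over 22 genes of cholesterol and fatty acid synthesis and -0.05 over 24 genes of the unfolded protein and amino acid response. In these lists Rps6 (0.72 ± 0.29), the desaturase gene Scd1 (0.48 ± 0.16) and Shmt2 (0.42 ± 0.19) were higher and 0 genes lower at an unadjusted p under 0.05 (limma). Single genes of that kind are near the share of all genes, of which 4.35% were higher. Genes that neighbour the targeted loci, which travel with the altered alleles, had medians of 0.09 over 16 genes around Crebbp and 0.11 over 22 around Ep300. The groups did not overlap in 6 of the 22 Ep300 neighbours, all on the higher side (6.88% of all genes), led by Cenpm, a centromere protein, at 285.7, 251.4 and 252.5 against 448.1, 576.3 and 328.2 (0.70 ± 0.24).

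**Figure D5:**
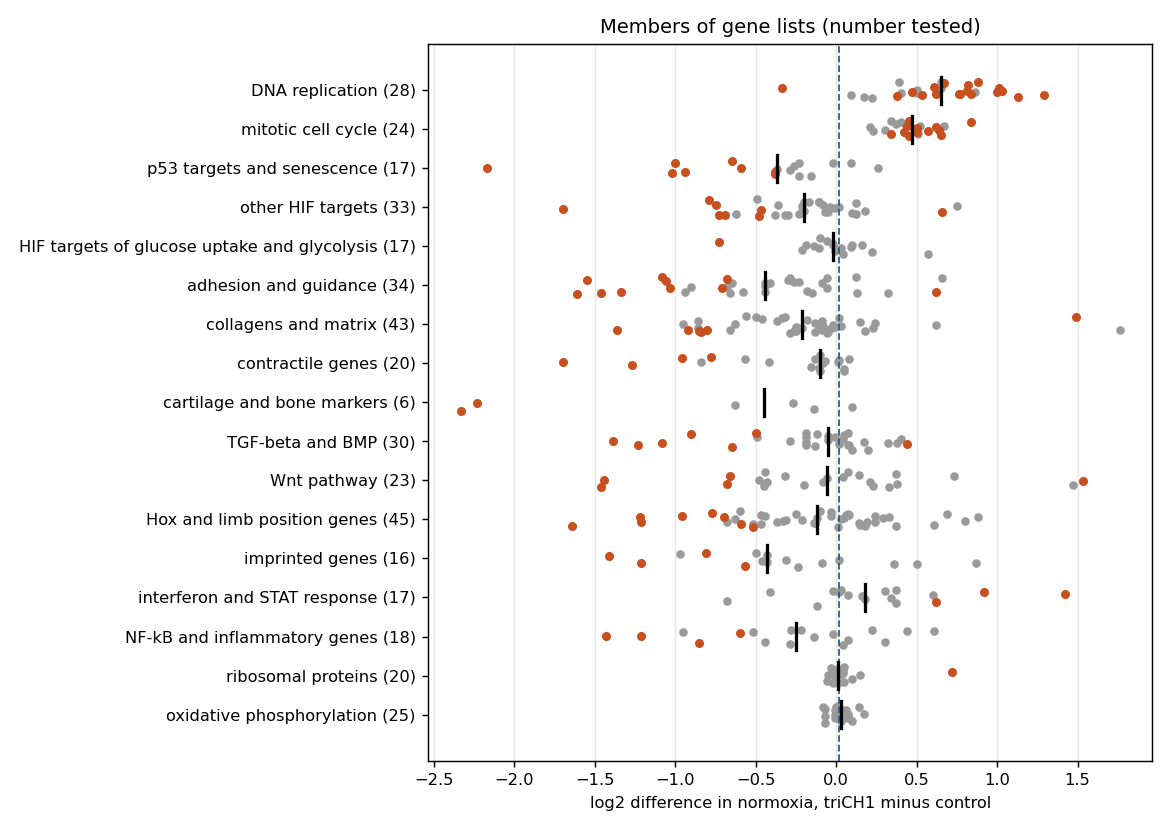
Log2 difference between triCH1 and control cultures in normoxia (x axis) of every measured member of 17 gene lists (y axis, number of genes in brackets), orange where the unadjusted limma p is under 0.05 and grey elsewhere, with a black bar at the list's median and a dashed line at the median of all genes (0.02). The bars for DNA replication (0.65) and mitosis (0.47) lie right of the dashed line, and those for p53 targets and senescence (-0.37), adhesion and guidance (-0.44) and imprinted genes (-0.43) lie left of it.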

How the data were processed

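The authors deposited 1 value per probe set for 12 arrays, a linear intensity from Affymetrix's Statistical algorithm with a scaling target of 500, per the labels. On the values, the mean of each array without its lowest and highest 2% was 500. The software version and the detection calls are not given in the sources used here. Of 45101 probe sets 64 were manufacturer's controls and were left out. Symbols came from the array's annotation table: 34945 probe sets had 1 symbol, 932 several and 9160 none listed.

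Values were tested as log2(signal + 20) in the 18903 probe sets whose mean reached 100. The model held 4 group means (control and triCH1, normoxia and hypoxia) with 8 residual degrees of freedom and was fitted in limma 3.58.1 (R 4.3.3) with moderated variances that follow the mean signal. Tests were two-sided, and p-values were Benjamini-Hochberg adjusted over all tested probe sets. Errors of log2 differences are standard errors from limma. The scripts were tested on simulated data. The fit over both oxygen levels used duplicateCorrelation with the line as block.

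Gene lists used the probe set with the highest mean for each gene. Genes were named by rule: called ones with separate groups, or, where a direction had fewer than 5 calls, its 10 lowest p-values, every probe set of the targeted genes, sex markers, and up to 4 members of a list with the largest absolute difference. The members of the lists and the tests were chosen with earlier results of these data known. Identical arrays numbered 0. Probe sets ending in _s_at or _x_at can read related transcripts. The number of arrays limits the precision.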

Additional observations from a re-analysis of the deposited data

How the results depend on the processing

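The sign of the 21 named genes was kept in all 649 values under the alternatives (558 on the same side of the threshold, 83 newly past it, 8 no longer past it, these 8 all of Cthrc1). Cthrc1 lost its call without the variance trend (adjusted p = 0.0557), on the 6 normoxia arrays alone (0.168), with 1 value per line (0.0682, an alternative chosen after seeing the data) and in 5 of 12 fits that left out an array or a line (0.0521 to 0.241, all limma). The count of lower probe sets was 1 and that of higher ones 0. With quantile normalization or median centring 2 were lower, without the variance trend 0, on the 6 arrays alone 0, with 1 value per line 0, with the line as a random block 3 and with the sex of the line as a covariate 9. The floxed gene as a covariate gave 27 higher and 61 lower, the lines with a floxed Ep300 allele alone 6 and 31, and the mean of normoxia and hypoxia with a random block 26 and 101. Leaving out 1 array in turn gave 0 to 16 higher and 0 to 47 lower, and leaving out 1 line 0 to 86 and 0 to 159. The highest counts were those without triCH1flox1. Without control flox2_1 there were 3 higher, without triCH1flox2_2 there were 3 lower, and without triCH1flox2_1, flox1 or flox2_2 there were 0 lower. The cause of these shifts was not tested.

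Lines with like names share a replicate number. Their deviations from the group means correlated at 0.37 (flox2_1), 0.32 (flox1) and -0.01 (flox2_2), so the names do not pair the lines throughout. A replicate block by line name on the 6 normoxia arrays called 3 higher and 13 lower.

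Signs reversed only for the targeted genes and sex markers, none of them called. With lines of floxed Ep300 alone the differences were -0.05 (Crebbp 1434633_at), -0.95 (Xist), 0.58 (Eif2s3y) and 0.47 (Kdm5d). With sex as a covariate they were -1.10, 0.69 and 0.41 for Xist, Eif2s3y and Kdm5d, with an offset of 1 Xist was at -0.09, and over both oxygen levels Crebbp 1434633_at was at -0.03 with either fit. With an array or line left out the differences ran from -0.27 to 0.36 for Crebbp 1434633_at, -0.25 to 0.45 for Crebbp 1435224_at, -0.20 to 0.64 for Crebbp 1436983_at, -0.21 to 0.32 for Ep300 and -0.75 to 1.91 for Xist. Signals near background limit the low genes.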

Other observations

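Further genes outside the lists were called in the fit over both oxygen levels. Those named here were chosen after their values were seen and are not ranked by size. Plac8, a small cysteine-rich protein, read 2872.9, 4572.9 and 3412.7 in flox2_1, flox2_2 and flox1 and 169.7, 523.9 and 1020.6 in triCH1flox2_1, triCH1flox2_2 and triCH1flox1 in normoxia. Its log2 difference was -2.91 ± 0.54 there (adjusted p = 0.114) and -2.91 ± 0.38 over both oxygen levels (adjusted p = 0.00434, limma). Ackr3, a scavenging chemokine receptor, read 756.8, 574.6 and 894.2 against 118.4, 205.5 and 371.2 in normoxia (-1.70 ± 0.34) and differed by -1.97 ± 0.25 over both oxygen levels (adjusted p = 0.00434, limma).

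Others had more than 1 probe set. Plau, the urokinase plasminogen activator, read 830.4, 601.6 and 718.5 against 106.2, 150.6 and 415.8 on probe set 1422139_at in normoxia (-1.79 ± 0.46), and its other probe set differed by -2.04 ± 0.45. All 4 probe sets of Tfpi, the tissue factor pathway inhibitor, were negative in normoxia (-1.33 to -1.65) and called over both oxygen levels (adjusted p 0.0332 to 0.0474, limma). Edil3, an integrin-binding matrix protein, differed by -2.13 ± 0.58 and -1.97 ± 0.48 on its probe sets. On the higher side Ctse, the aspartic protease cathepsin E, read 207.2, 401.3 and 123.1 against 649.8, 800.0 and 553.8 (1.51 ± 0.38; adjusted p = 0.034 over both oxygen levels, limma). In normoxia no triCH1 culture reached the range of the controls in any of these genes, and triCH1flox1 was the triCH1 culture nearest to it.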
